A study of Homo sapiens with 6 samples.

Results

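The HOX genes of the 4 human clusters were examined in SK-N-AS cells, a line derived from neuroblastoma, a childhood tumour of the sympathetic nervous system. They were taken as all genes whose symbol is HOX followed by A, B, C or D and a number, which gave 39 of the 60651 gene identifiers in the tables: 11 in HOXA on chromosome 7, 10 in HOXB on chromosome 17, 9 in HOXC on chromosome 12 and 9 in HOXD on chromosome 2. The cells carried a tetracycline repressor and a stably transfected MYCN gene that tetracycline switches on, and all 6 libraries, controls included, came from such cells kept under G418 and blasticidin. The growth protocol speaks of single clones, so the line as a model may stand for 1 clone. The 3 control libraries were labelled ETOH and the 3 MYCN-induced libraries Tet, all at 120 h, and 5 days of tetracycline is the stated induction. Total RNA was depleted of ribosomal RNA and sequenced in pairs, and the replicates are described as independent experiments.

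HOX genes encode homeodomain transcription factors that give cells along the body axis their positional identity. Within a cluster the genes lie in a row in paralogue order, low numbers are used toward the head and high numbers toward the tail, and the set of HOX genes a cell keeps open is commonly read as a record of where it came from. Polycomb complexes hold the unused part of a cluster silent, trithorax complexes keep the used part active, and retinoic acid switches low-numbered genes on in the embryo. MYCN is a basic helix-loop-helix factor that binds E-boxes, of which CACGTG is the best known. The values below give which parts of the 4 clusters were transcribed in these cells and how each gene compared between control and MYCN-induced libraries.

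Library totals ran from 64500589 to 102249336 assigned read pairs and mitochondrial genes took 11.85% to 14.18% of them. MYCN itself had TMM-normalized CPM (counts scaled to the library total and to a trimmed mean over genes) of 30.3, 35.5 and 32.4 in the controls and 211, 221 and 199 after induction, a log2 fold change of 2.68 ± 0.08 (SE, n = 3 and 3, edgeR adjusted p = 4.15e-05). In a principal component analysis of log2 CPM the leading axis (44.8% of variance) placed MYCN-induced replicate 3 at 69.1 and the other induced libraries at 14.4 and 13.1, with the controls between -40.3 and -25.9. Of the adrenergic neuroblastoma markers, GATA3 stood at 58.4 TPM (counts per exon length, scaled to the same sum in every library) in the controls and TBX2 at 24.5, whereas STMN2 had at most 3 counts in a library. Of 12 adrenergic markers 11 were tested. The list summed to 622 to 745 TPM in the controls and 544 to 694 TPM after induction. Of 12 mesenchymal markers 11 were tested, and the list summed to 476 to 546 TPM in the controls and 384 to 598 TPM after induction, with CD44 at 0 counts in every library. The markers named are single examples, and most of each sum came from other members. The cells were therefore assigned to neither identity. At an edgeR adjusted p under 0.05, 2 adrenergic markers and 1 mesenchymal marker were lower and none of either list was higher. Over all tested genes 2.38% were lower and 1.02% higher. Unadjusted p was under 0.05 for 4 of 11 adrenergic and 7 of 11 mesenchymal markers, beside 18.7% of all tested genes. DESeq2 called 4 in each list, beside 7.23%. Log2 fold changes were above 0 in 4 adrenergic markers (median -0.087, range -1.21 to 0.37). They were above 0 in 7 mesenchymal markers (median 0.2, range -0.71 to 1.18). The 16 markers of leukocytes, endothelium, epithelium, Schwann cells and muscle summed to 8.12 to 9.34 TPM in the controls and 7.39 to 9.65 TPM after induction, the T-cell gene CD3E was at 0, and the part of such cells in the HOX values was not tested.

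Sequence at the start of HOX genes was read from RefSeq windows on GRCh38.p14 that run from 250 bases before to 50 bases after a start site. The windows matched 20 of the 39 genes, 27 windows in all because HOXA3 and HOXA10 have several starts. HOXC4 and HOXC5 shared 1 window, which is counted once for each. The adjacent HOXA13 and HOXA11 are shown first, the former transcribed and the latter at traces in these cells. Only the bases before the start are printed, with each CpG dinucleotide, the site of DNA methylation and the mark of a CpG island, in capitals.
HOXA13 (chr7:27200092-27200341, minus strand): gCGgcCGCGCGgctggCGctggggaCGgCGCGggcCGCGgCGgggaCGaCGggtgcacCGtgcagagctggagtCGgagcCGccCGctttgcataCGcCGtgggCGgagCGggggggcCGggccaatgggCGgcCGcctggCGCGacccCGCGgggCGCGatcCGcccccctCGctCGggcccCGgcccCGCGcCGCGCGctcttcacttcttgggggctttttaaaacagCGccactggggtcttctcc
HOXA11 (chr7:27185233-27185482, minus strand): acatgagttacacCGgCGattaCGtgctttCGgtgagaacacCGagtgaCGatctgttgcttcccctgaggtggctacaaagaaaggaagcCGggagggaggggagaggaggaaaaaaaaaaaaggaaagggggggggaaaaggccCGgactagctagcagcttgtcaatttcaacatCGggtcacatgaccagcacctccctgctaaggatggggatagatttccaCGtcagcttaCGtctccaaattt
The stretch before HOXA13 held 40 CpG and that before HOXA11 held 11. Over the full windows of 300 bases the counts were 44 and 13, against a median of 14 over 35116 windows of all genes. Among the members with a window, this difference did not extend to transcribed and silent ones as groups. Many tested members had no window. The 8 tested members with a window had 4 to 44 CpG (median 24), and the 19 windows of 12 untested members had 0 to 36 (median 21), so the ranges overlapped almost fully.

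The E-box CACGTG, which reads the same on both strands, occurred in the windows of 9 of the 20 members, in 9 of 27 windows (33.3%), while 7.26% of the windows of all genes held it. Those of the 3 tested members, which carried the motif and were measured on both sides of the comparison, are given with 15 bases on each side and the motif in capitals, followed by 2 members that were silent here.
HOXD3 (chr2:176157245-176157280, plus strand): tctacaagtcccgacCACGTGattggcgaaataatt
HOXD10 (chr2:176116657-176116692, plus strand): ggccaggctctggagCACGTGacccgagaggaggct
HOXD11 (chr2:176107175-176107210, plus strand): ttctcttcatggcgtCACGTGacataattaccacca
HOXA7 (chr7:27156660-27156695, minus strand): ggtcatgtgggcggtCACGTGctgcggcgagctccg
HOXA9 (chr7:27165588-27165623, minus strand): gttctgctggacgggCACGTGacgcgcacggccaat
The other members with the motif were HOXA3 (in 1 of its windows), HOXA4, HOXD1 and HOXD13, all of them untested for low counts. Counted from the start site, with -1 as the base before it, the first base of the motif lay at -47 in HOXD3, -106 in HOXD10, -90 in HOXD11, -5 in HOXA7 and -71 in HOXA9. A match of letters is not a bound site, and no binding was measured. HOXA13 and HOXD8 had no CACGTG in their windows.

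Each cluster was transcribed over a different segment, and long stretches were silent. Over the 6 libraries 17 of the 39 genes passed the filter of 10 counts in at least 3 libraries, 1 in HOXA, 4 in HOXB, 6 in HOXC and 6 in HOXD. The other 22 had at most 9 counts in any library, and 7 of them, HOXA2, HOXB5 and HOXC12 among these, had none in any library. A level of 3 counts, which is what a count of 0 leaves possible for counting error alone, corresponded to 0.00624 to 0.0685 TPM depending on gene length and library. In the controls 11 genes stood at 1 TPM or more. The grid of levels by cluster and paralogue group shows the segments.

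**Figure D1:**
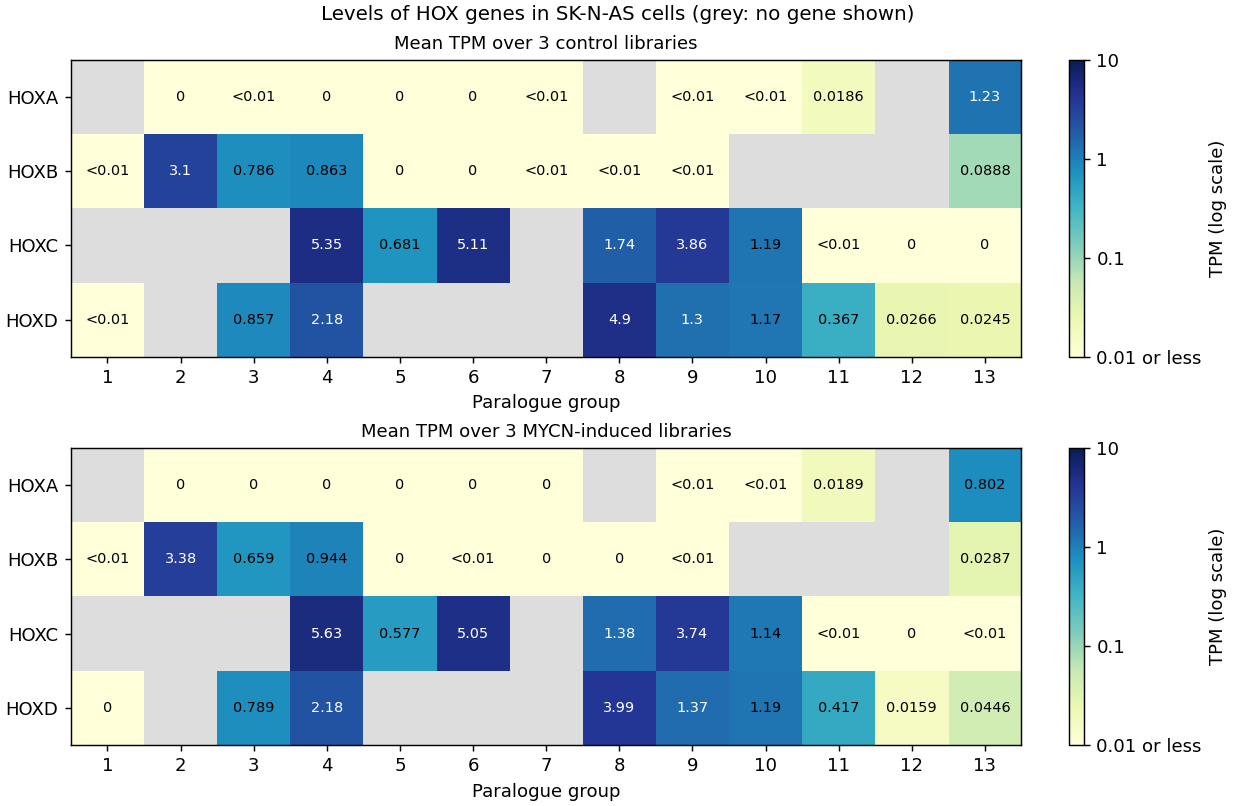
Mean TPM of the HOX genes shown over the 3 control (top) and 3 MYCN-induced (bottom) libraries, with clusters in rows, paralogue groups in columns and colour on a log scale. HOXA is pale but for HOXA13 (1.23 TPM in controls), HOXB is coloured at groups 2 to 4, HOXC at 4 to 10 and HOXD at 3 to 11, in both panels.

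The HOXA cluster on chromosome 7 was silent along nearly its whole length. HOXA13, a factor of limb and hindgut or urogenital development, had 1.23 ± 0.102 TPM in the controls (SD, n = 3) and made up 97.2% of the summed TPM of the cluster. Its neighbour HOXA11 had 2, 2.67 and 4.33 counts in the controls and 4.5, 1.33 and 0.5 after induction, and HOXA9 had 0, 2 and 0.5 against 1.5, 0 and 0.5. These are traces at the level of single read pairs, and the groups overlapped in both genes. From HOXA2 to HOXA10 no member exceeded 4 counts in a library.

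The HOXB cluster (chr17:48528526-48728750) was transcribed at its low-numbered end. HOXB2, a hindbrain patterning gene, had 3.22, 2.87 and 3.22 TPM in the 3 controls, the fifth highest mean of all members (3.10). HOXB4, known for its use in expanding blood stem cells, averaged 0.863 TPM and HOXB3 averaged 0.786. HOXB1 before them and HOXB5 to HOXB9 after them had at most 1 count in any library. HOXB13, a prostate and tail-end gene that lies apart from the rest of its cluster, had a low level of 0.0888 ± 0.0177 TPM in the controls, from 14, 18 and 16 counts.

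The HOXC cluster (chr12:53938831-54056030) gave 51.4% ± 0.639 of all HOX TPM in the controls, the largest share of the 4. HOXC4 had the highest level of all members at 5.35 ± 0.481 TPM, and HOXC6 followed at 5.11 ± 0.155, so these neighbours in the order did not differ beyond their spread. HOXC9 stood at 3.86, HOXC8 at 1.74, HOXC10 at 1.19 and HOXC5 at 0.681 TPM. HOXC11 had at most 4 counts and HOXC13 at most 1, next to HOXC12 with none, so the transcribed segment ended between HOXC10 and HOXC11.

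The HOXD cluster (chr2:176092721-176190907) gave 31.0% ± 0.268. HOXD8 led it at 4.90 ± 0.201 TPM, followed by HOXD4 at 2.18 and HOXD9 at 1.30. HOXD10 (1.17), HOXD3 (0.857) and HOXD11 (0.367) were lower. HOXD13, which with HOXD12 patterns digits, had 2, 2 and 7 counts in the controls and 9, 2 and 3 after induction, HOXD12 had at most 8 and HOXD1 at most 2.5. HOXB contributed 13.9% ± 0.853 and HOXA 3.64% ± 0.367 of the HOX TPM.

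Read across clusters by paralogue group, groups 1, 7 and 12 had no tested member. Group 4 was the most widely used, with HOXB4, HOXC4 and HOXD4 transcribed and HOXA4 at 0, and it held 24.0% of the HOX TPM. Groups 8, 9 and 10 were each carried by their HOXC and HOXD members, group 3 by HOXB3 and HOXD3, and group 13 by HOXA13 and HOXB13. Groups 2, 5, 6 and 11 rested on a single member each (HOXB2, HOXC5, HOXC6 and HOXD11). The central groups 4 to 8 summed to 20.8 ± 0.839 TPM in the controls, the posterior groups 9 to 13 to 9.29 ± 0.355 and the anterior groups 1 to 3 to 4.76 ± 0.257. None of these levels was high for the cells as a whole, since 61.0% of all tested genes had a lower control TPM than HOXC4, 59.1% than HOXD8 and 3.3% than HOXB13.

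Other genes inside the clusters, of which 61 were counted, include antisense and long non-coding RNAs and microRNA hairpins. Protein-coding genes, pseudogenes and RNAs annotated as miscellaneous are also among them. Only 12 passed the filter, and they lay in or beside the transcribed segments (HOTTIP upstream of HOXA13, HOXB-AS1 and HOXB-AS3, HOXC-AS1 to HOXC-AS3, 3 unnamed HOXC genes, MIR10B, HAGLR and HOXD-AS2). HOTAIR in the silent part of HOXC and HOTAIRM1 in HOXA had no counts in any library. The plot along the clusters sets them beside the HOX genes.

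**Figure D2:**
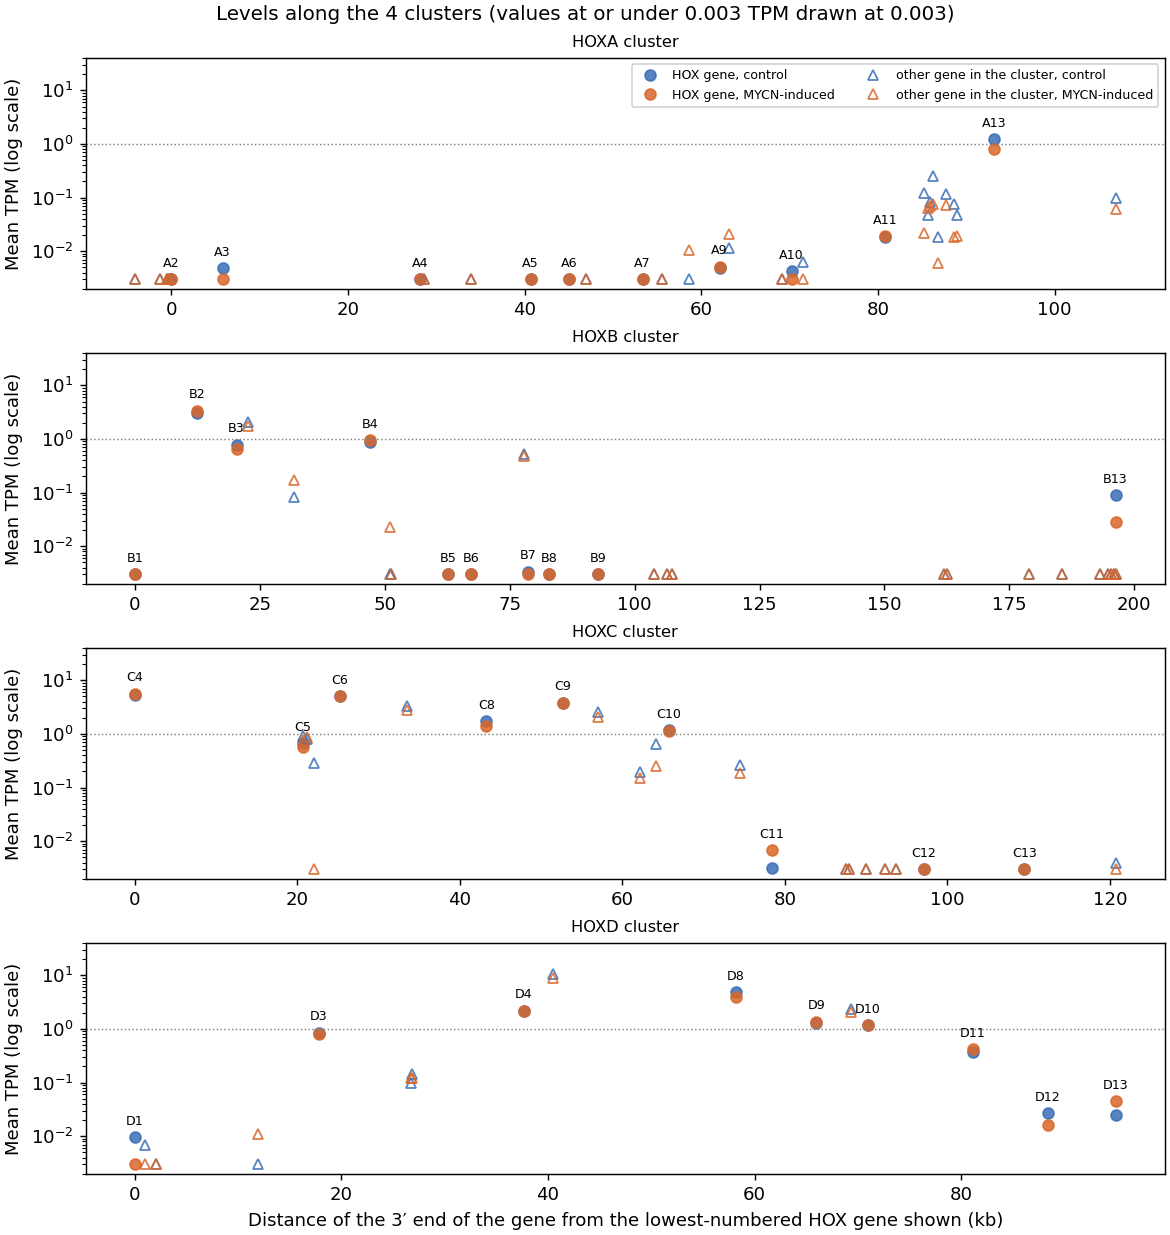
Mean TPM (log scale) of HOX genes (filled circles) and of the other genes in each cluster (open triangles) against the distance in kb from the lowest-numbered HOX gene shown, for control (blue) and MYCN-induced (orange) libraries, with a dotted line at 1 TPM. The levels rise at HOXA13, HOXB2 to HOXB4, HOXC4 to HOXC10 and HOXD3 to HOXD11. HOX genes outside these segments lie far lower, many at or near the floor of the plot. The highest of them is HOXB13, at 0.0888 TPM in the controls. Blue and orange points nearly coincide at most genes of the segments.

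The clusters also hold the miR-10 and miR-196 families, small RNAs that pair with messenger RNAs, HOX messages among them, through their seed. Mature arms in the RefSeq table are shown with the seed (bases 2 to 8) in capitals, because 2 of them share it. The miR-10a and miR-10b arms shown are not matching arms, since the table held no other arm of miR-10b. Whether matching miR-10 arms share a seed is therefore not shown here.
hsa-miR-196a-5p (chr12:53991762-53991783, plus strand): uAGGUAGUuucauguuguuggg
hsa-miR-196b-5p (chr7:27169528-27169549, minus strand): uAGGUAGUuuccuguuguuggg
hsa-miR-10a-5p (chr17:48579904-48579926, minus strand): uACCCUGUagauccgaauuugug
hsa-miR-10b-3p (chr2:176150368-176150389, plus strand): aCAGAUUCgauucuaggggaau
The miR-196a and miR-196b arms, counted from 1 at the 5′ end, differ by A12C outside the seed. Long-fragment libraries count read pairs over the hairpin locus, not mature miRNA. The MIR10B locus beside HOXD4 had 69, 62 and 74 counts in the controls and 34, 78 and 33 after induction, groups that overlapped. MIR10A, in the HOXB cluster, and MIR196B and MIR196A1 had no counts, and MIR196A2 in HOXC had 2 to 7 counts in the controls and 1 or 2 after induction.

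MYCN-induced and control libraries were compared with edgeR on all 29086 genes. No library came from tetracycline-treated cells without the MYCN construct, so tetracycline itself and MYCN cannot be told apart. None of the 17 tested members passed the adjusted threshold of 0.05 in either direction, where 3.40% of all tested genes did (1.02% higher and 2.38% lower). At an unadjusted p under 0.05 there were 3 of 17 (17.6%), HOXA13, HOXB13 and HOXD8, against 18.7% of all tested genes. The same 3 genes had control and induced CPM that did not overlap (17.6%, against 26.3% of all tested genes), each lower after induction. DESeq2 called 1 member, HOXA13, and 7.23% of all genes. Log2 fold changes were below 0 in 11 of 17 members (64.7%, against 50.1% of all tested genes) with a median of -0.06, and all shares but the last were at or under their background.

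**Figure D3:**
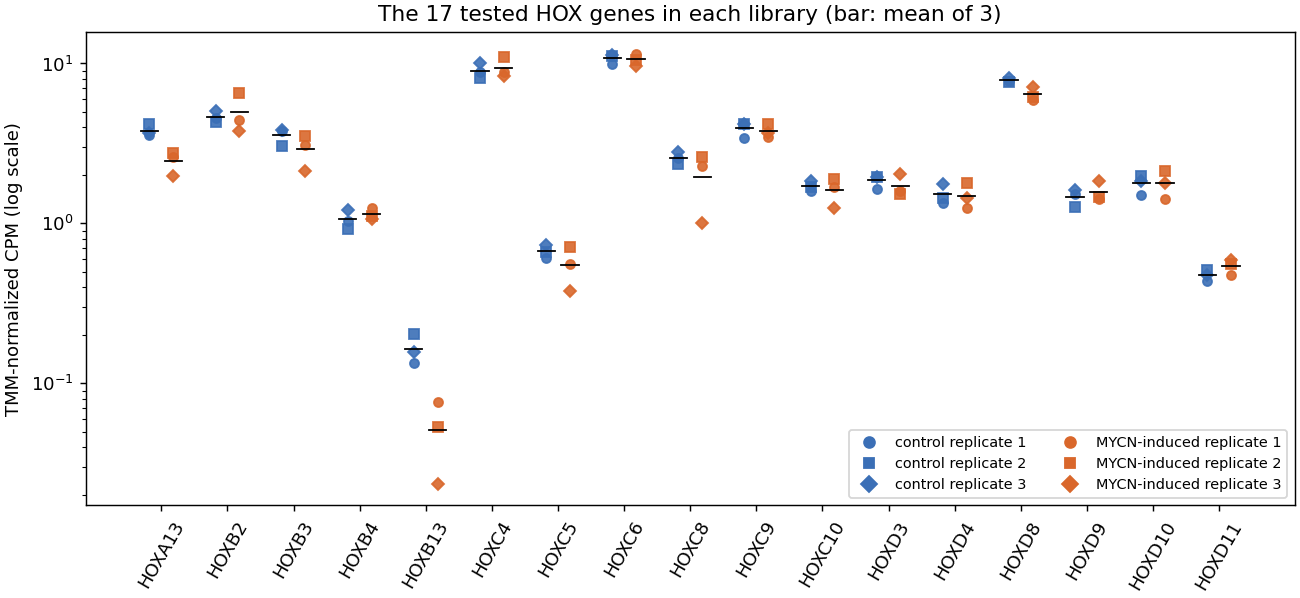
TMM-normalized CPM (log scale) of the 17 tested HOX genes in each of the 6 libraries, controls in blue and MYCN-induced in orange, with marker shape for the replicate number and a bar at the mean of 3. The 2 groups lie apart only at HOXA13, HOXB13 and HOXD8, and the orange diamond of MYCN-induced replicate 3 is the lowest of the 6 at 8 of 17 genes.

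HOXA13 had 3.57, 4.17 and 3.69 CPM in the controls and 2.59, 2.76 and 1.98 after induction. Every induced library lay below every control library. The log2 fold change was -0.64 ± 0.15 (SE, n = 3 and 3), with a 95% interval of -1.0 to -0.29 and an edgeR adjusted p = 0.0695. Over the alternatives the adjusted p ran from 0.00875, which DESeq2 gave, to 0.294, and the fold change stayed between -0.74 and -0.50. HOXA13 shares 86 exon bases with HOTTIP, a long non-coding RNA transcribed from the opposite strand, and the deposited tables name no strand option, so reads there cannot be told apart. HOTTIP had 0.306, 0.282 and 0.345 CPM in the controls and 0.154, 0.236 and 0.189 after induction, groups that did not overlap either (log2 fold change -0.67 ± 0.25, edgeR adjusted p = 0.206).

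HOXB13 was counted 14, 18 and 16 times in the controls and 5, 5 and 2 times after induction. The induced counts are close to the limit of detection, and the gene entered the test only through its controls, so its place among the lower genes is partly fixed by the filter. The log2 fold change was -1.69 ± 0.44 (95% interval -2.70 to -0.68, edgeR adjusted p = 0.0852, 0.0759 to 0.161 over the alternatives). It shared no exon base with another gene. HOXD8 had 7.79, 7.69 and 8.07 CPM in the controls and 5.93, 6.17 and 7.15 after induction, the induced values again all lower. Its log2 fold change was -0.29 ± 0.11 (95% interval -0.54 to -0.04, edgeR adjusted p = 0.203). Without MYCN-induced replicate 3 it was -0.37 ± 0.08 with an edgeR adjusted p = 0.0472, the single setting in which HOXD8 passed, where 8.12% of all tested genes did. HOXD8 shares 24.4% of its exon bases with HOXD-AS2 on the opposite strand, whose own log2 fold change was -0.13 ± 0.14.

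**Figure D4:**
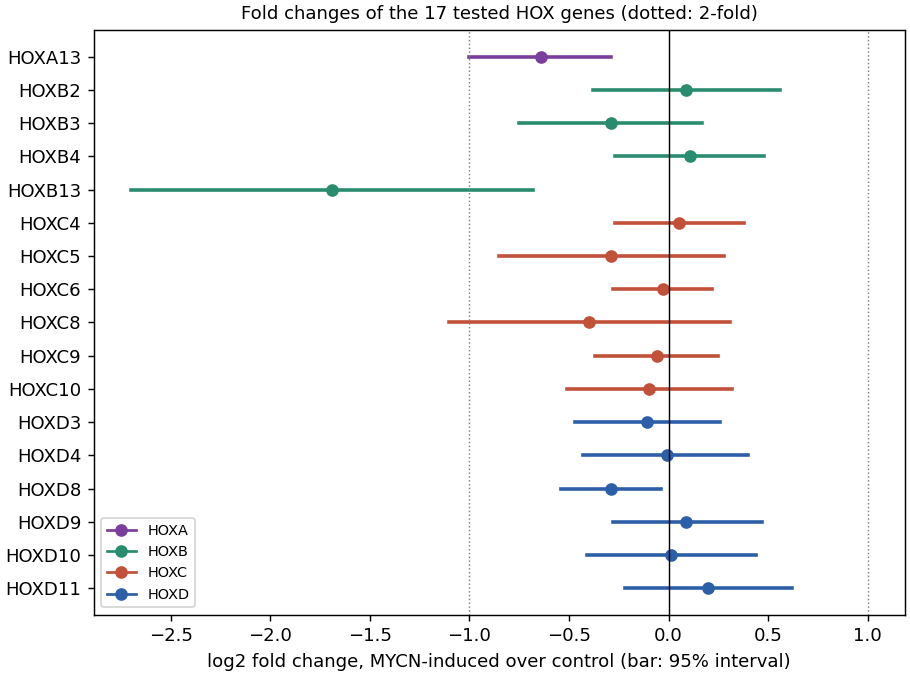
Log2 fold changes of the 17 tested HOX genes (points) with 95% intervals (bars), coloured by cluster, with dotted lines at 2-fold. Intervals of HOXA13, HOXB13 and HOXD8 lie below 0 before adjustment and the other 14 span 0.

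The leading HOXC genes were nearly level between groups. HOXC4 had 8.80, 8.15 and 10.1 CPM in the controls and 8.80, 11 and 8.32 after induction, a log2 fold change of 0.05 ± 0.14 (edgeR adjusted p = 0.883). HOXC6 had 9.89, 11.2 and 11.3 against 11.5, 10.5 and 9.69, a log2 fold change of -0.03 ± 0.11 (edgeR adjusted p = 0.921). The controls and induced libraries of both genes were interleaved. HOXC9 had 3.41, 4.20 and 4.19 against 3.47, 4.16 and 3.68 (-0.06 ± 0.13, edgeR adjusted p = 0.866). HOXC8, a trunk gene, had 2.56, 2.36 and 2.78 against 2.27, 2.59 and 1.0, the lowest value coming from MYCN-induced replicate 3. Its log2 fold change was -0.40 ± 0.31 (edgeR adjusted p = 0.548), and without that library it was -0.07. HOXC5 (-0.29) and HOXC10 (-0.10) did not pass either. HOXC5 shares 67.3% of its exon bases with 2 unnamed genes that span several HOXC genes, so its count depends on how read pairs were split, and HOXC4 and HOXC6 share 484 bases with each other.

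In HOXB, HOXB2 had 4.57, 4.33 and 5.05 CPM in the controls and 4.45, 6.58 and 3.79 after induction, with the highest and the lowest of the 6 values both among the induced libraries (log2 fold change 0.09 ± 0.20, edgeR adjusted p = 0.864). HOXB3 had 3.79, 3.05 and 3.83 against 3.10, 3.51 and 2.12 (-0.29 ± 0.20, edgeR adjusted p = 0.495), and HOXB4 had 1.03, 0.925 and 1.22 against 1.25, 1.12 and 1.07 (0.11 ± 0.16, edgeR adjusted p = 0.783). The groups overlapped in all 3 genes.

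In HOXD below HOXD8, HOXD4 had 1.34, 1.44 and 1.77 CPM in the controls and 1.25, 1.78 and 1.45 after induction (log2 fold change -0.01 ± 0.18, edgeR adjusted p = 0.977), and HOXD9 had 1.53, 1.27 and 1.62 against 1.42, 1.47 and 1.83 (0.09 ± 0.16, edgeR adjusted p = 0.814). Groups of both overlapped. The 3 members whose windows above hold CACGTG gave log2 fold changes of -0.11 (HOXD3), 0.01 (HOXD10) and 0.20 (HOXD11), none past the threshold. HOXD10 and HOXD11 share 452 exon bases with each other. For 14 of the 17 members the 95% interval lay within 1 log2 unit of 0, and for 8 within 0.5, so at this depth a 2-fold change in either direction lay outside the interval of all but HOXA13, HOXB13 and HOXC8.

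The summed level of all 39 genes was 34.8, 34.0 and 35.8 TPM in the controls and 32.7, 41.0 and 26.4 TPM after induction. On this scale the induced libraries spread on both sides of the controls. In TMM-normalized CPM the sums were 54.3, 55.9 and 60.9 in the controls. After induction they were 52.1, 58.5 and 48.3. MYCN-induced replicates 1 and 3 thus lay below all controls, and no induced library lay above all of them. The HOXA sums, which are mostly HOXA13, were 3.59, 4.23 and 3.79 CPM in the controls. After induction they were 2.68, 2.77 and 1.99 CPM, so the groups did not overlap. By cluster the mean sums were 1.27 and 0.828 TPM for HOXA, 4.85 and 5.02 for HOXB, 17.9 and 17.5 for HOXC and 10.8 and 9.99 for HOXD, controls first. In TPM the largest and the smallest sum over all 39 genes were those of MYCN-induced replicates 2 and 3. This also held for the TPM of HOXB and HOXC but not of HOXA and HOXD. In CPM the largest sum, over all 39 genes and for HOXC and HOXD, was that of control replicate 3. In bulk RNA, fewer cells that express a gene and less RNA per cell cannot be told apart.

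Genes around and upstream of the clusters were described by counts beside all tested genes, whose median log2 fold change was 0 and of which 49.9% lay above 0. Of the 12 tested non-HOX genes inside the clusters none passed edgeR, 1 had an unadjusted p under 0.05 (HOTTIP) and DESeq2 called none; 11 lay below 0, with a median of -0.276. Of 36 tested genes flanking the clusters 1 was lower, a share near the 2.38% of all tested genes, namely JAZF1 (-0.52 ± 0.07, edgeR adjusted p = 0.0144), which lies near HOXA, and the median was -0.005. The TALE homeodomain cofactors, which bind DNA together with HOX proteins, were all tested and none of 9 passed edgeR. At an unadjusted p under 0.05 there were 2 of 9, beside 18.7% of all tested genes: MEIS1 (195, 187 and 191 CPM against 163, 168 and 141, log2 fold change -0.28, edgeR adjusted p = 0.105) and PKNOX2 (4.59, 4.42 and 4.05 against 2.97, 2.83 and 1.55, log2 fold change -0.83, edgeR adjusted p = 0.102), and DESeq2 called PKNOX2 (7.23% of all tested genes). The most abundant cofactor per length, MEIS2, stood at 42.5 TPM in the controls and 41.2 after induction.

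Of 14 tested genes of retinoic acid synthesis and reception 3 were lower and none higher, beside 2.38% and 1.02% of all tested genes, with a median of -0.312. Unadjusted p was under 0.05 for 7 of 14, beside 18.7% of all tested genes. The groups did not overlap for 7 of 14, beside 26.3%, and DESeq2 called 3, beside 7.23%. ALDH1A3, an enzyme that makes retinoic acid, had 44.1, 45.6 and 45.1 CPM in the controls and 20.7, 19.3 and 19.3 after induction (log2 fold change -1.18 ± 0.07, edgeR adjusted p = 0.00106). ALDH1A1, another such enzyme, was low throughout (0.372, 0.609 and 0.602 against 0.077, 0.0751 and 0.13 CPM) with a log2 fold change of -2.46 ± 0.34 (edgeR adjusted p = 0.0122). Its induced counts were too few to pass the filter by themselves, so its place among the lower genes is partly fixed by the filter. DHRS3, which turns retinal back to retinol and is itself a retinoic acid target, had 30.4, 34.9 and 37.5 against 21.6, 21.4 and 22.3 CPM (-0.65 ± 0.09, edgeR adjusted p = 0.0144). The receptors RARA, RARB, RARG, RXRA and RXRB did not pass, with log2 fold changes from -0.30 to 0.21. The fall of ALDH1A1 and DHRS3 had edgeR adjusted p above 0.05 in at least 1 alternative, reaching 0.0749 and 0.103.

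None of 27 polycomb genes and none of 18 trithorax and demethylase genes passed edgeR. Unadjusted p under 0.05 was found for 3 polycomb genes, EZH1 and CBX6 among them, and for 0 of the trithorax list, beside 18.7% of all tested genes, and DESeq2 called none in either. EZH2, the catalytic subunit of the polycomb complex that silences HOX genes, stood at 32.1 and 32.2 TPM (log2 fold change -0.02), and KMT2A, the trithorax-type methyltransferase known for its hold on HOXA genes, at 10.3 and 9.60 TPM (-0.10). The 8 ParaHox, EVX and CDX genes, the nearest relatives of the HOX clusters, were all too low to test.

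Of 72 tested homeobox genes outside the HOX clusters 5 were higher and none lower, beside 1.02% and 2.38% of all tested genes, with a median of 0.011. Unadjusted p was under 0.05 for 24 of 72, beside 18.7% of all tested genes. The groups did not overlap for 25 of 72, beside 26.3%, and DESeq2 called 9, beside 7.23%. DLX2 had 1.94, 2.20 and 1.95 CPM in the controls and 4.73, 5.70 and 7.74 after induction (log2 fold change 1.58 ± 0.19, edgeR adjusted p = 0.00762). DLX1, its neighbour on chromosome 2 outside the HOXD cluster, had 4.93, 5.37 and 6.00 against 12.3, 15.7 and 11.6 (1.28 ± 0.14, edgeR adjusted p = 0.00645). SIX4 (0.69), MSX1 (0.63) and GBX2 (0.54) were the other 3. All of these are developmental regulators of forebrain, sensory placode, limb or hindbrain tissue.

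**Figure D5:**
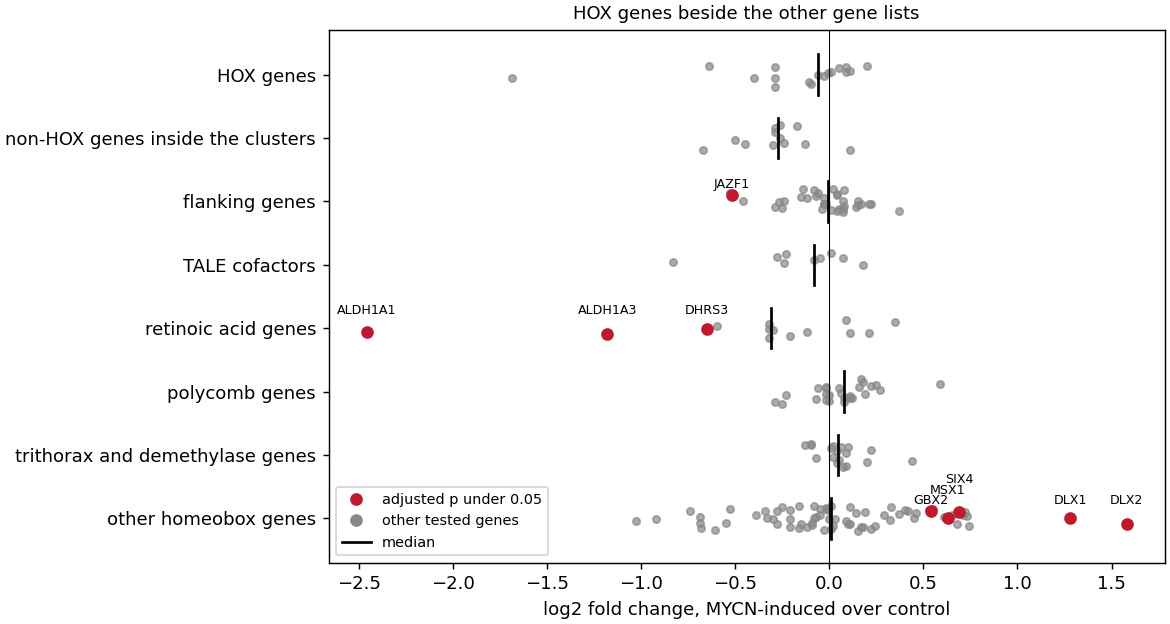
Log2 fold changes of each tested gene by list, red where the edgeR adjusted p was under 0.05 and grey otherwise, with a black bar at the median of the list (vertical scatter within a list only separates points). HOX genes hold no red point, the retinoic acid list has 3 red points below 0 and the other homeobox genes have 5 above 0.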

How the data were processed

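RNA of 3 control and 3 MYCN-induced libraries was analysed. The authors deposited estimated counts per gene, made per the labels with STAR 2.7.1a and featureCounts 1.5.1 on GRCh38. Per the file headers, uniquely aligned pairs overlapping several genes were shared in equal fractions without a strand option, while the methods name a strand option and GENCODE, and the headers name another featureCounts version than the labels; values were used as deposited. Names came from GENCODE v44 (99.65% of identifiers matched).

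Estimated counts were rounded. A gene entered the test when 3 or more libraries had 10 or more counts, and edgeR 4.0.16 was used (R 4.3.3; TMM, quasi-likelihood, no replicate block, Benjamini-Hochberg over all 29086 genes, threshold 0.05). TPM used deposited counts and exon lengths and CPM were TMM-normalized. Alternatives were DESeq2 1.42.0, other scalings and filters, rounding down, the block, and leaving out each library. On simulated data edgeR recovered 56% of 200 genes changed 2-fold (83.9% of those with a mean of at least 100 counts), with 10 of the unchanged among 28562 genes called. Floors cover counting error only, whereas the edgeR intervals include the spread between replicates. Per-library values are given for the 3 members with the highest control TPM in each cluster and the 3 tested members with the largest change, and those past the threshold were to be included. The members and lists were chosen with earlier results of these data known. The symbol pattern for other homeobox genes caught 720 genes, of which 577 that are no homeobox genes were dropped after values were seen. HOXC5, HOXC10, HOXB1, HOXD3, HOXD10 to HOXD13 and the motif and list genes are named outside that rule, after their values were seen. Figures used Python 3.11.15 and matplotlib 3.10.9. A few genes are not reported here.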

Additional observations from a re-analysis of the deposited data

How the results depend on the processing

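Of 231 alternative log2 fold changes of single HOX genes, 209 kept direction and side of the threshold, 2 newly passed (HOXA13 by DESeq2, HOXD8 without MYCN-induced replicate 3) and 20 changed sign, in 8 genes whose change was near 0. The number of lower HOX genes rose from 0 to 1 in those 2 settings, and no other alternative called a member. Signs turned for HOXD4 at 0.0013 (DESeq2 size factors), 0.0021 (DESeq2) and 3.1e-06 (no count filter) and for HOXD10 at -0.019 (library size only) and -0.017 (upper quartile). With 1 library left out, the fold changes spanned 0 for HOXB2 (-0.18 to 0.26), HOXC4 (-0.078 to 0.14), HOXC6 (-0.093 to 0.037), HOXC9 (-0.16 to 0.0039), HOXC10 (-0.23 to 0.073), HOXD4 (-0.16 to 0.11), HOXD9 (-0.022 to 0.17) and HOXD10 (-0.13 to 0.15); the cause was not tested.

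Over all genes 298 were higher and 692 lower. DESeq2 gave 904 and 1199 (43.0% of calls higher, against 30.1%), no filter gave 470 higher, and leaving out 1 library gave 18 to 1060 higher and 72 to 1279 lower, the largest counts without MYCN-induced replicate 3 and the smallest without control replicate 2. Calls among flanking genes were 1, with 2 by DESeq2 and 0 to 5 with 1 library left out. TALE cofactors had 0, with 1 by DESeq2 and 0 to 2; retinoic acid genes 3, with 1 to 4; polycomb genes 0, with 0 to 2; other homeobox genes 5, with 3 by library size, 9 by DESeq2 and 0 to 13. HOX genes above the level limit numbered 11, or 6 at 2 TPM. Without mitochondrial genes in the total the summed control TPM were 1.91, 7.33, 27.1 and 16.4 for HOXA to HOXD, with the same order.

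Deviations of same-numbered libraries from their group means correlated at 0.216, -0.019 and 0.074, and those of unlike numbers at -0.193 to 0.082. Deviations from a mean of 3 depend on each other, so these values cannot decide whether replicate numbers pair the samples. With the replicate block HOXD10 was at -0.0028, 1 polycomb gene was called, and no HOX gene passed. Members of few counts, such as HOXB13, are limited by depth.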
